A study of Mus musculus with 95 samples.

Results

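Trimethylation of histone H3 at lysine 36 (H3K36me3) was mapped by chromatin immunoprecipitation and sequencing (ChIP-seq) in mouse embryonic stem cells of 5 genotypes: wild-type, Pcgf1-/-, Pcgf2/4-/-, Pcgf3/5-/- and Pcgf6-/-. The 5 peak lists made with the H3K36me3 antibody were taken, of 78 peak lists and 95 samples used here from the whole study. Each genotype had 1 H3K36me3 library, so no difference between the lists has a replicate check and none was tested. The lines derive from the E14 stem cell line and were grown on gelatin in serum with LIF, a GSK3β inhibitor and a MEK1/2 inhibitor. Each knockout is a clone isolated after transfection of Cas9 and guide RNAs. The double knockouts were made by editing a single-knockout clone again, and every line carries its deletions constitutively. RNA-seq of the same genotypes, with 2 libraries each, gave the expression values. Whether the ChIP and the RNA of a line came from 1 culture is not given in the sources used here, and the clone name of the Pcgf2/4-/- and Pcgf6-/- peak lists could not be matched to that of the RNA.

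H3K36me3 is deposited by SETD2, a methyltransferase that travels with elongating RNA polymerase II. It therefore marks the bodies of transcribed genes, is scarce at their promoters and accumulates towards their 3′ ends. PCGF proteins are alternative subunits of Polycomb repressive complex 1 (PRC1), each built around RING1A or RING1B, which monoubiquitinates histone H2A. PCGF2 and PCGF4 belong to canonical PRC1, PCGF1, PCGF3, PCGF5 and PCGF6 to variant complexes, and the PCGF6 complex contains the E-box binding pair MGA and MAX together with E2F6. In stem cells the mark is read as a sign of productive elongation, so its gain or loss over a gene body is usually compared with the RNA of the same gene.

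The wild-type list held 60309 peaks that covered 69.5 Mb. The Pcgf1-/- list held 71858 peaks over 104 Mb, the Pcgf2/4-/- list 49101 peaks over 86.6 Mb, the Pcgf3/5-/- list 75972 peaks over 103 Mb and the Pcgf6-/- list 59343 peaks over 93.1 Mb. The wild-type list was thus the shortest, the knockout lists covered 1.25 to 1.5 times its length, and it also had the lowest median fold enrichment, 6.09 against 6.69 to 8.38 in the authors' values. Between 93.4% and 94.1% of the covered bases of each list lay in annotated genes. A gene was called covered where at least 20% of its annotated span, start to end, lay in peaks. It was called gained where at least 20% was covered in the knockout and under 5% in wild-type, and lost in the reverse case. Because a longer list alone makes more genes look gained, each count was repeated with every list cut to the covered length of the wild-type list, taking its strongest peaks first. That repeat is called equal covered length below, and a value of 0% means that no peak was called, not that the mark is absent.

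Of 19025 genes described, 4806 were covered in wild-type, 6096 in Pcgf1-/-, 5479 in Pcgf2/4-/-, 5989 in Pcgf3/5-/- and 5924 in Pcgf6-/-. At equal covered length the numbers lay between 4590 and 4942. Most of the landscape was shared: 4507 genes were covered in all 5 lists and 12285 in none. In the wild-type list 171 genes lay at 18% to 20% and 201 at 20% to 22%, just outside and just inside the threshold.

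Within genes the 5 lists had the same shape. Over 1761 protein-coding genes covered in all 5 lists, 10 kb or longer and free of overlap with another gene, the last 1 kb before the start was 0.81% covered in wild-type and 1.07% to 1.46% covered in the knockouts. With the gene body divided into 10 equal bins, the first bin was 6.35% covered in wild-type and the ninth 69.9%. In the knockouts the ninth bin was 80.5% to 82.8% covered. Past the annotated end the covered share was 46.2% in the first 1 kb and 27.1% in the second in wild-type, so the mark ran beyond the gene. The bin of highest coverage was the ninth in all 5 lists.

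**Figure D1:**
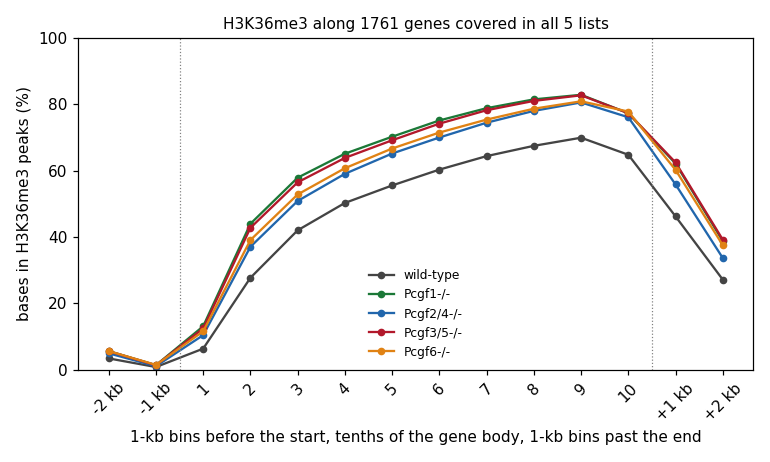
Mean percent of bases in H3K36me3 peaks (y axis) in 2 bins of 1 kb before the gene start, 10 equal bins of the gene body and 2 bins of 1 kb past the end (x axis), 1 line per peak list. All 5 lists stay under 6% before the start and reach their maximum, 69.9% in wild-type and 80.5% to 82.8% in the knockouts, in the ninth bin.

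Coverage followed the RNA level of the same line. RNA levels are CPM, read counts scaled to the normalised library size, divided by exon length in kb, and tested genes were ranked within each line. In wild-type 0.29% of the genes of the lowest decile were covered, against 25.1% of the fifth and 77.2% of the highest. In Pcgf6-/- the lowest decile stood at 4.28% and the highest at 82.2%, and in Pcgf1-/- at 0.57% and 87.2%. By gene length, in wild-type 34.97% of tested genes of 1 to 5 kb were covered, 46.0% of those of 5 to 20 kb, 38.7% at 20 to 50 kb, 20.8% at 50 to 100 kb and 4.78% over 100 kb. RNA level was not held fixed across these classes. Of the known genes, 17 of 18 housekeeping genes were covered in each list, 0 of 18 genes of differentiated tissues in any. Of 17 pluripotency genes, 12 were covered in wild-type and 12 to 14 in the knockouts. Of the genes of other early lineages, 1 of 16 primitive endoderm genes and 0 of 14 trophoblast genes were covered in wild-type.

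**Figure D2:**
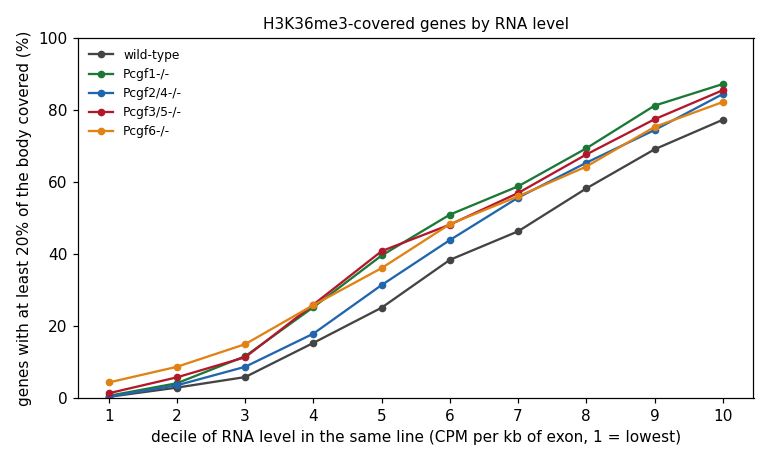
Percent of genes with at least 20% of the gene body in H3K36me3 peaks (y axis) by decile of RNA level in the same line (x axis, 1 is the lowest), 1 line per genotype. The share climbs at every step in each line, from 0.29% to 77.2% in wild-type and from 4.28% to 82.2% in Pcgf6-/-.

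The RNA comparison used 14 libraries of 2147968 to 7848161 counts. The 2 wild-type libraries differed by less than sampling noise (chi-square per degree of freedom 0.951, against 1.19 to 21.3 in the other groups) and should be read as 1 sample. Their values are therefore given without an SD. The main edgeR fit still entered them as 2 libraries, so its adjusted p-values and counts treat wild-type as replicated. Calls were repeated with the wild-type libraries summed into 1, which called fewer genes in each knockout. Nothing in the labels says that the 2 libraries of a knockout came from separate cultures, so p-values may measure technical spread. Among 15464 genes tested, the quasi-likelihood test of edgeR at a Benjamini-Hochberg adjusted p of 0.05 called 13.9% raised and 18.4% lowered in Pcgf1-/-. It called 8.1% raised and 13.5% lowered in Pcgf2/4-/-, 11.1% raised and 10.4% lowered in Pcgf3/5-/-, and 27.8% raised and 18.6% lowered in Pcgf6-/-. These shares are the background against which the counts below are read, and adjusted p-values below come from this edgeR test. The 4 comparisons share the wild-type list and the wild-type libraries, so their values are set side by side and not correlated. In bulk samples fewer cells of a type and less RNA per cell cannot be told apart.

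The deleted genes were looked at first. Pcgf1 (chr6:83028380-83030841 of NCBIM37, plus strand) was 36.6% covered in wild-type, 61.2% in Pcgf2/4-/-, 64.5% in Pcgf3/5-/- and 64.6% in Pcgf6-/-, but 0% in Pcgf1-/-. Its RNA was at 66.1 and 61.0 CPM in the wild-type libraries and at 4.81 and 3.20 CPM in Pcgf1-/- (log2 fold change -3.90 ± 0.20 SE, edgeR adjusted p = 2.4e-08). H3K36me3 was not gone from the locus: in Pcgf1-/- 5 peaks of 295 to 736 bases lay within 3 kb past the gene's end, the first of them starting at 83030875. Pcgf6 was 59.3% covered in wild-type and 71.5% to 74.3% in the other 3 knockouts, but 18.1% in Pcgf6-/-. No Pcgf6 count was seen in either Pcgf6-/- library, against 36.2 and 34.3 CPM in wild-type, which makes it at least 76.9-fold lower with a floor of 3 counts per library. Pcgf2 was 39.4% covered in wild-type and 43.2% in Pcgf2/4-/-, where its RNA did not pass the test (log2 fold change 0.10). Pcgf3 was 34.5% covered in wild-type and 46.2% in Pcgf3/5-/-. Bmi1, which encodes PCGF4, was at 4.82% in wild-type and 10.9% in Pcgf2/4-/-, and Pcgf5 was at 0% in every list. Pcgf1 and Pcgf6 were thus low in RNA and in gene-body H3K36me3 in their own knockouts, while the values of Pcgf2, Pcgf3, Pcgf5 and Bmi1 give no check of the labels. How much of this follows from the deleted sequence itself was not tested. Pcgf5 RNA was lower in Pcgf3/5-/- (log2 fold change -1.22), but also in Pcgf1-/- (-1.28) and Pcgf2/4-/- (-1.17), and it rose in Pcgf6-/- (1.83, edgeR adjusted p = 1.3e-06).

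Of 3 neighbours of Pcgf1, 2 differed in Pcgf1-/-, 1 in coverage and 1 in RNA. Dqx1, 11.2 kb away, was 0% covered in wild-type and 0.76% in Pcgf1-/-, with an RNA change of -0.02 that did not pass. Tlx2, a homeobox gene on the minus strand 8.09 kb upstream of Pcgf1 (chr6:83018311-83020287), was 0% covered in wild-type and 90.9% in Pcgf1-/-, the largest difference of the genes named for that line. A single peak of 2865 bases with a fold enrichment of 10.3 accounted for it. The peak ran from 83017243 to 83020107, so it began just past the annotated end of Dqx1 at 83017204. Dqx1 lies on the plus strand, had RNA of 35.7 and 47.1 CPM in Pcgf1-/- and was 18.7% covered in Pcgf6-/-. Which of the 2 genes the peak belongs to was not tested. Tlx2 was also 34.7% covered in Pcgf6-/-, where its RNA fell to 0.12 and 0.31 CPM (log2 fold change -2.97, edgeR adjusted p = 0.0020), and 0% in the remaining knockouts. In Pcgf1-/- its RNA was low, at 0.87 and 1.14 CPM against 1.71 and 1.83 CPM in wild-type, and did not pass the test (edgeR adjusted p = 0.20). On the other side Lbx2, a homeobox gene 5.52 kb downstream on the plus strand, had 0% coverage in every list, while its RNA rose from 0.86 and 1.69 CPM in wild-type to 20.9 and 23.1 CPM in Pcgf1-/- (log2 fold change 4.07, edgeR adjusted p = 2.4e-07). Lbx2 was singled out after its values were seen. The new peak thus lay over Tlx2, which had little RNA, and next to the end of Dqx1, which was expressed. Lbx2, whose RNA rose, had no peak.

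Most genes listed here as writers, erasers and readers of H3K36 methylation were neither gained nor lost themselves. Members of these lists need not act on, or bind, the trimethylated form. Setd2, the trimethylase, was 35.9% covered in wild-type, 42.4% to 50.7% in Pcgf1-/-, Pcgf3/5-/- and Pcgf6-/-, and 12.9% in Pcgf2/4-/-. It lies in the block at the end of chromosome 9 described last, where the Pcgf2/4-/- list was short. Its RNA fell in Pcgf1-/- (log2 fold change -0.48, edgeR adjusted p = 0.0095) and Pcgf3/5-/- (-0.61, edgeR adjusted p = 0.0036). In Pcgf2/4-/- the change of -0.33 did not pass (edgeR adjusted p = 0.083). Of the 6 H3K36 methyltransferases 3 were covered in wild-type and 2 to 4 in the knockouts, and none was gained or lost. Of the 6 genes listed as H3K36 demethylases 3 were covered in every list, among them Kdm4a at 86.2% in wild-type and 85.6% to 91.3% in the knockouts. Of 11 genes listed as H3K36 readers, 7 were covered in wild-type. Morf4l2, an X-linked gene for a subunit of acetyltransferase complexes, counted as gained in all 4 knockouts, with 3.71% in wild-type and 20.2% to 42.4% in the knockouts. Its RNA passed the test in none of them (edgeR adjusted p of 0.23 to 0.91), and at equal covered length it counted as gained in Pcgf2/4-/- and Pcgf6-/-. Dnmt3b, the de novo DNA methyltransferase whose PWWP domain binds H3K36me3, was at 50.3% in wild-type and 62.8% to 73.9% in 3 knockouts, but at 19.3% in Pcgf6-/-. Its RNA fell there from 149 and 155.7 CPM to 72.0 and 63.0 CPM (log2 fold change -1.18, edgeR adjusted p = 2.3e-05). It also fell in Pcgf3/5-/- (-0.78, edgeR adjusted p = 0.0025), where its coverage was above wild-type. In Pcgf2/4-/-, also above wild-type in coverage, the fall of -0.54 passed (edgeR adjusted p = 0.022) but not with the wild-type libraries summed (edgeR adjusted p = 0.087). Dnmt3b, Kdm4a and Morf4l2 overlap another annotated gene.

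The knockouts differed from wild-type mostly by genes added. In Pcgf1-/- 295 genes counted as gained and 12 as lost, in Pcgf2/4-/- 198 and 53, in Pcgf3/5-/- 247 and 13, and in Pcgf6-/- 395 and 22. At equal covered length this balance turned: 48 gained and 223 lost in Pcgf1-/-, 98 and 195 in Pcgf2/4-/-, 51 and 201 in Pcgf3/5-/-, and 189 and 141 in Pcgf6-/-. Pcgf6-/- thus kept more gained than lost genes in both counts. The excess of gained genes in the other 3 lines depended on the length of the lists. Most gained genes already carried the promoter mark of active genes. Between 91.9% and 95.5% of them had an H3K4me3 peak within 2.5 kb of the start in wild-type, against 70.4% of all genes described, and their median wild-type RNA level was 11.9 to 18.9 CPM per kb against 2.30 over all genes. They were also shorter, with medians of 5.78 to 10.1 kb against 18.9 kb. The covered share of genes in general also rose with RNA level and was lowest over 100 kb, as given above. These traits are therefore not shown to be particular to gained genes. The genes named below are those with the largest differences that counted in both settings and overlapped no other gene, and members of the fixed gene lists, which need not meet these conditions.

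**Figure D3:**
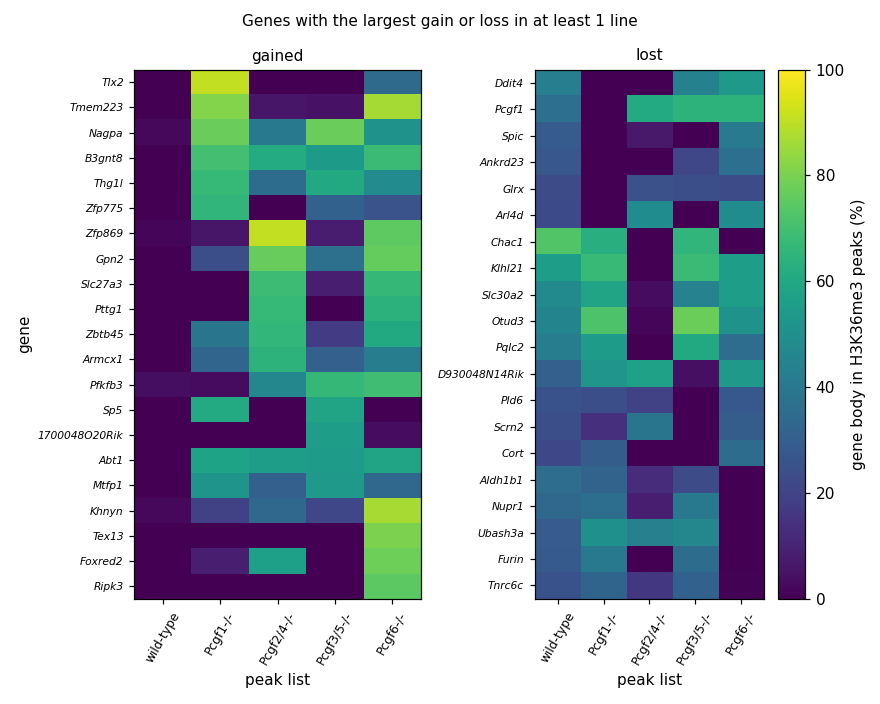
Percent of the gene body in H3K36me3 peaks (colour, 0 to 100%) for the named gained genes (left) and lost genes (right), 1 row per gene and 1 column per peak list. Gained genes are dark in the wild-type column by the rule that chose them. Several of them, such as Nagpa and Abt1, are covered in all 4 knockouts, while Ripk3 and Tex13 are covered in Pcgf6-/- alone of the 5 lists.

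In Pcgf1-/- the RNA of the gained genes did not rise as a group: 42 of 282 tested passed as raised and 59 as lowered, 14.9% and 20.9%, near the background. Their median log2 fold change was -0.10 against -0.05 over all described genes. The order depended on the fit: relative-log-expression (RLE) scaling gave 52 and 52, leaving out Pcgf1-/- replicate 2 gave 47 raised and 32 lowered, leaving out Pcgf1-/- replicate 1 gave 30 and 41, leaving out wild-type replicate 1 gave 27 and 33, and without wild-type replicate 2 it was 26 and 37. Nagpa, which encodes the enzyme that uncovers the mannose 6-phosphate signal of lysosomal hydrolases, was 2.29% covered in wild-type and 77.3% in Pcgf1-/-. Its RNA was at 88.7 and 91.8 CPM in wild-type and 81.4 and 90.3 CPM in Pcgf1-/-, so the groups overlapped (edgeR adjusted p = 0.71). Tmem223 was at 0.14% in wild-type and 81.6% in Pcgf1-/-, with an RNA change of 0.01. Thg1l, a tRNA-His guanylyltransferase, had 0% and 67.1%, and its RNA fell (log2 fold change -0.44 ± 0.12 SE, edgeR adjusted p = 0.0099). Zfp775, a zinc finger gene, had 0% and 65.9%, and its RNA rose from 26.4 and 24.9 CPM to 52.9 and 39.8 CPM (0.87 ± 0.16 SE, edgeR adjusted p = 0.0011). B3gnt8, a glycosyltransferase gene, had 0% and 70.1% at 3.00 and 3.80 CPM in wild-type. Other knockouts shared these gains. B3gnt8 was at 54.6% to 68.1%, Thg1l at 35.3% to 60.8% and Nagpa at 40.3% to 77.1% in the other knockouts. Tmem223 was at 86.4% in Pcgf6-/-, and Zfp775 at 31.2% in Pcgf3/5-/- and 25.6% in Pcgf6-/-.

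Among the listed lineage genes, 2 gained in Pcgf1-/- differed in their RNA. Krt18, an epithelial keratin of trophoblast, had 0% in every list but Pcgf1-/-, where it was 46.1% covered, and its RNA rose from 30.5 and 32.2 CPM to 81.7 and 82.1 CPM (log2 fold change 1.38, edgeR adjusted p = 4.1e-05). In Pcgf6-/- Krt18 RNA rose further, to 155.9 and 159 CPM (2.33), at 0% coverage. T, the mesoderm regulator Brachyury, was likewise 26.1% covered in Pcgf1-/- alone of the 5 lists, yet its RNA fell from 36.2 and 30.0 CPM to 8.74 and 5.72 CPM (-2.13, edgeR adjusted p = 1.7e-05). T RNA fell in the other 3 knockouts too, where it was 0% covered. Neither gene counted as gained at equal covered length.

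The 12 lost genes of Pcgf1-/- included 4 raised and 4 lowered genes of 11 tested, and 3 to 4 raised and 2 to 3 lowered when 1 RNA library was left out at a time or the wild-type libraries were summed. Pcgf1, the deleted gene, was itself among the lost and lowered genes. Besides it, Glrx, a glutaredoxin gene, was at 23.2% in wild-type and 0% in Pcgf1-/-, and its RNA fell from 165 and 170 CPM to 85.6 and 109 CPM (log2 fold change -0.79, edgeR adjusted p = 0.012). Ddit4, an inhibitor of mTORC1 induced by stress, went against its RNA. It was 42.9% covered in wild-type and 0% in Pcgf1-/-, while its RNA rose from 3.14 and 3.66 CPM to 27.8 and 20.3 CPM (2.84 ± 0.22 SE, edgeR adjusted p = 7.7e-07). Ddit4 was at 0% in Pcgf2/4-/- too, where its RNA change of 0.81 did not pass (edgeR adjusted p = 0.051). At equal covered length no knockout list had a peak on it. Spic and Arl4d were also at 0% in Pcgf1-/- with raised RNA (0.60 and 0.98). Both were at 0% in Pcgf3/5-/- as well, where their RNA did not pass (-0.28 and -0.04).

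In Pcgf2/4-/- 18 of 193 tested gained genes passed as raised and 40 as lowered, 9.33% and 20.7%. The lowered share stood above the background of the line, and with the wild-type libraries summed 10 passed as raised and 28 as lowered. Without wild-type replicate 1 the counts were 11 and 23, without wild-type replicate 2 they were 9 and 24, and without Pcgf2/4-/- replicate 2 they were 37 and 55. Zfp869, a KRAB-family zinc finger gene, had 1.55% in wild-type and 90.6% in Pcgf2/4-/-. Its RNA fell from 51.9 and 52.7 CPM to 27.2 and 31.1 CPM (log2 fold change -0.82 ± 0.14 SE, edgeR adjusted p = 0.00097). Gpn2, a GTPase gene, had 0% and 76.7%, and its RNA rose (0.75 ± 0.16 SE, edgeR adjusted p = 0.0051). Slc27a3, a fatty acid transporter gene, had 0% and 68.4%, and Pttg1, the securin that holds separase, 0% and 66.9%. Neither passed the RNA test. These gains were not limited to Pcgf2/4-/-. In Pcgf6-/- Zfp869 was at 75.3%, Gpn2 at 76.3%, Slc27a3 at 66.6% and Pttg1 at 64.3%. Utf1, a pluripotency gene, was at 0% in wild-type and 44.2% in Pcgf2/4-/-, with RNA at 181 and 182 CPM in wild-type and 155 and 129 CPM in the knockout. Utf1 also counted as gained in Pcgf1-/- and Pcgf6-/-. In Pcgf1-/- its RNA fell (-0.49, edgeR adjusted p = 0.023, but 0.090 with the wild-type libraries summed). In Pcgf6-/- its RNA change of -0.28 did not pass (edgeR adjusted p = 0.15). Pfkfb3, a regulator of glycolysis, was at 3.75% in wild-type and 46.1% in Pcgf2/4-/-, although its RNA fell from 33.2 and 35.4 CPM to 4.19 and 4.98 CPM (-2.84, edgeR adjusted p = 7.8e-06).

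Pcgf2/4-/- had the most lost genes, 53, of which 9 passed as raised and 8 as lowered of 51 tested. With the wild-type libraries summed these were 5 and 2, without wild-type replicate 1 they were 4 and 2, without wild-type replicate 2 they were 3 and 3, without Pcgf2/4-/- replicate 1 they were 10 and 3, and without Pcgf2/4-/- replicate 2 they were 9 and 15. Klhl21, an adaptor of the CUL3 ubiquitin ligase, was 55.8% covered in wild-type and 0% in Pcgf2/4-/-, with RNA of 28.7 and 28.7 CPM against 5.45 and 14.1 CPM (log2 fold change -1.33 ± 0.26 SE, edgeR adjusted p = 0.0028). Slc30a2, a zinc transporter gene, was at 47.5% and 3.38% with RNA that did not pass (0.20). Otud3, a deubiquitinase gene, was at 45.05% and 1.90%, and its RNA rose (1.33, edgeR adjusted p = 0.029, but 0.065 with the wild-type libraries summed). Chac1, which degrades glutathione in the unfolded protein response, was at 72.8% in wild-type, 62.8% in Pcgf1-/- and 65.7% in Pcgf3/5-/-, but at 0% in Pcgf2/4-/- and in Pcgf6-/-. Its RNA did not pass in Pcgf2/4-/- (-0.26, edgeR adjusted p = 0.25).

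In Pcgf3/5-/- more gained genes passed as raised than as lowered, but most passed in neither direction: of 231 tested, 46 passed as raised and 12 as lowered, 19.9% and 5.19%, against 11.1% and 10.4% over all genes tested. The median log2 fold change was 0.06 against 0.00 over the genes described. At equal covered length 13 of 50 passed as raised and 4 as lowered. Leaving out 1 RNA library at a time gave 32 to 40 raised and 2 to 5 lowered. The uncharacterised gene 1700048O20Rik had 0% in wild-type and 55.5% in Pcgf3/5-/-, with RNA of 8.13 and 9.14 CPM against 32.5 and 30.1 CPM (log2 fold change 1.86 ± 0.20 SE, edgeR adjusted p = 1.9e-05). Pfkfb3 was at 3.75% and 66.7%, Sp5, a target gene of Wnt signalling, at 0% and 58.4%, and Abt1, an activator of basal transcription, at 0% and 55.4%. None of these 3 passed the RNA test in Pcgf3/5-/- (edgeR adjusted p of 0.15 to 0.55). Their coverage was not limited to this line. Pfkfb3 was at 69.3% in Pcgf6-/-, Sp5 at 61.2% in Pcgf1-/- and Abt1 at 55.6% to 58.2% in the other knockouts.

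Imprinted genes, expressed from 1 parental allele, included 3 of the gained genes of this line. Of 14 described, 3 were covered in wild-type and 6 in Pcgf3/5-/-, where 3 counted as gained, 1 as lost, and 5 of 13 passed as raised and 1 as lowered. Over all 19025 genes described, 247 counted as gained and 13 as lost in this line. Plagl1, a zinc finger growth regulator, was at 0.63% in wild-type, 36.2% in Pcgf1-/- and 33.7% in Pcgf3/5-/-, and 0% in Pcgf6-/-. Its RNA was at 97.0 and 100 CPM in wild-type and 257 and 267 CPM in Pcgf3/5-/- (log2 fold change 1.41, edgeR adjusted p = 3.3e-06), and it also rose in Pcgf1-/- (0.96, edgeR adjusted p = 5.6e-05). In Pcgf6-/- its RNA fell to 13.6 and 13.6 CPM (-2.86, edgeR adjusted p = 2.2e-09). Peg10 and Peg3, paternally expressed genes, were at 30.6% and 22.3% in Pcgf3/5-/- and at 0% in the other 4 lists. Their RNA rose in Pcgf3/5-/- as well (1.21 and 1.12). Peg10 RNA also rose in Pcgf2/4-/- (0.93), where no peak was called on it. None of the 3 counted as gained at equal covered length.

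The 13 lost genes of Pcgf3/5-/- had 1 raised and 3 lowered of 12 tested. Leaving out 1 RNA library at a time gave 0 raised and 1 to 3 lowered. The uncharacterised gene D930048N14Rik was at 30.6% in wild-type, 4.22% in Pcgf3/5-/- and 52.1% to 57.1% in the other knockouts. Its RNA fell from 14.8 and 12.7 CPM to 4.81 and 4.03 CPM (log2 fold change -1.62 ± 0.22 SE, edgeR adjusted p = 0.00019). Pld6, a mitochondrial nuclease of piRNA biogenesis, was at 25.1% and 0% with RNA that did not pass (-0.39).

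Pcgf6-/- gained the most genes, and as a whole their RNA resembled the background: 104 of 377 tested passed as raised and 68 as lowered, 27.6% and 18.04%. Leaving out 1 RNA library at a time gave 75 to 88 raised and 49 to 52 lowered. The gained genes differed by whether PCGF6 had been at their promoter. Of 58 gained genes with a PCGF6 peak within 2.5 kb of the start in wild-type, 56 were tested, and 33 passed as raised and 5 as lowered, with a median log2 fold change of 0.67. Of the 337 without such a peak 321 were tested, and 71 passed as raised and 63 as lowered, with a median of -0.04. Over all described genes with a PCGF6 peak, 40.02% passed as raised and 11.8% as lowered, so the 58.9% raised among the gained ones stood above that too. Of all genes with a PCGF6 peak 5.40% counted as gained, against 1.88% of those without. At equal covered length 17 of 24 tested with the peak passed as raised and 1 as lowered, and with the wild-type libraries summed 31 and 4 of 56. This division was made after the gained genes had been listed. Divided in the same way by the protein removed, gained genes with a PCGF1 peak in Pcgf1-/- were 1 raised and 3 lowered of 7. Those with a PCGF2 peak in Pcgf2/4-/- were 0 raised and 8 lowered of 22, and those with a PCGF3 peak in Pcgf3/5-/- 2 raised and 0 lowered of 7. Over all tested genes with the peak, 22.7% passed as raised and 17.4% as lowered for PCGF1. For PCGF2 these shares were 8.22% and 18.4%, and for PCGF3 6.71% and 9.76%.

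Of the 20 germline genes described, 3 were among the gained genes, against 395 of all 19025 genes described. The list was drawn up with earlier results of these data known. All 3 act in the piRNA pathway, which silences transposons in germ cells. Tdrkh, a Tudor protein that anchors PIWI proteins at mitochondria (chr3:94217218-94236555), was 0% covered in wild-type and in the other 3 knockouts and 53.1% in Pcgf6-/-. Its RNA was at 7.13 and 3.24 CPM in wild-type and 137 and 148 CPM in Pcgf6-/- (log2 fold change 4.77 ± 0.20 SE, edgeR adjusted p = 4.9e-10). Mael, a factor of piRNA biogenesis (chr1:168131516-168168875), was covered at 27.5% in Pcgf6-/- alone of the 5 lists, and its RNA rose from 20.1 and 23.9 CPM to 194 and 220 CPM (3.23, edgeR adjusted p = 4.1e-10). Mov10l1, an RNA helicase that feeds precursors into the pathway (chr15:88813339-88885582), was at 24% in Pcgf6-/- and 0% elsewhere, with RNA of 11.99 and 10.1 CPM against 198 and 204 CPM (4.18, edgeR adjusted p = 3.0e-10). Piwil2, a PIWI protein chosen here after its values were seen, was at 68.5% in Pcgf6-/- and 0% in the other lists, with RNA of 17.6 and 14.1 CPM against 155.9 and 160 CPM (3.32). In each of these 4 genes the 2 knockout libraries lay far above both wild-type libraries. Piwil2 lies on chromosome 14, whose lists stand apart as described last. Piwil2 and Mov10l1 overlap another annotated gene, and Mael and Mov10l1 did not reach 20% at equal covered length.

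All 4 had a PCGF6 peak and a RING1B peak within 2.5 kb of the start in wild-type. The 250 bases before the start of Mael, Mov10l1 and Tdrkh, read from NCBIM37 and printed 5′ to 3′ on the strand of the gene, show how varied these promoters are. Capitals mark CACGTG, the E-box bound by MAX heterodimers, and TCCCGC or its reverse complement GCGGGA, the core of the E2F site, searched on both strands with no overlap between the motifs.
Mael (chr1:168168876-168169125, minus strand): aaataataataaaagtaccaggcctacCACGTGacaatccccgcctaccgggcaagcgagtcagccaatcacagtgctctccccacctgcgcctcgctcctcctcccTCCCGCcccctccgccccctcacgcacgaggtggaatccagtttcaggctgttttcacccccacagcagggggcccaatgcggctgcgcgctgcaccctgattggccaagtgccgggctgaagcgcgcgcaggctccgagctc
Mov10l1 (chr15:88813089-88813338, plus strand): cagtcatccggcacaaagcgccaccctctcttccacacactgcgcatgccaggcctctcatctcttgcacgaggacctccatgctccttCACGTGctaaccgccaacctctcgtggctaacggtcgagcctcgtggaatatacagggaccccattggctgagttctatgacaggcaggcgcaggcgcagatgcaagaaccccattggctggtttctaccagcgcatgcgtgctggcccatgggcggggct
Tdrkh (chr3:94216968-94217217, plus strand): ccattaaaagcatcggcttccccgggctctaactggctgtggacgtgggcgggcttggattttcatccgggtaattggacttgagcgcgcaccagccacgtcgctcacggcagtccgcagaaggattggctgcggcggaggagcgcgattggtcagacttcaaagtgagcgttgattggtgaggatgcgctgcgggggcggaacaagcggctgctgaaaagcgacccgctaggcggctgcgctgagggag
Mael held 1 match to each motif, Mov10l1 1 to CACGTG, and Tdrkh none in this window. Over all 19025 genes 7.08% held CACGTG in the same 250 bases, against 12 of 58 gained genes with a PCGF6 peak (20.7%) and 34 of 337 without (10.1%). Over all 1075 genes with a PCGF6 peak the share was 15.2%. TCCCGC was held by 22.4% of all genes, 25.9% of the gained genes with a PCGF6 peak and 28.5% of those without. A match is a string of letters and not a bound site.

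Other named gains of Pcgf6-/- had no PCGF6 promoter peak or fell outside the germline genes. Tex13, a testis gene on the X chromosome, was at 80.1% in Pcgf6-/- and 0% in the other lists, and its RNA rose from 1.71 and 1.27 CPM to 25.3 and 23.3 CPM (log2 fold change 4.01 ± 0.30 SE, edgeR adjusted p = 1.1e-07). Ripk3, the kinase of necroptosis, was at 74.8% in Pcgf6-/- and 0% elsewhere, with RNA of 34.2 and 33.2 CPM against 57.5 and 55.3 CPM (0.74 ± 0.18 SE, edgeR adjusted p = 0.0032). Khnyn, a cofactor of the antiviral protein ZAP, was at 2.07% in wild-type, 33.6% in Pcgf2/4-/- and 86.8% in Pcgf6-/-. In Pcgf6-/- its RNA fell from 13.6 and 14.8 CPM to 6.97 and 5.21 CPM (-1.20 ± 0.29 SE, edgeR adjusted p = 0.0035). Foxred2, an oxidoreductase of the endoplasmic reticulum with a PCGF6 and a RING1B promoter peak, was at 0% and 77.8%, and at 56.6% in Pcgf2/4-/-. Its RNA change of 0.64 passed (edgeR adjusted p = 0.014) but not with the wild-type libraries summed (edgeR adjusted p = 0.058).

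The genes lost in Pcgf6-/- were more often lowered than raised in RNA. Of 21 tested, 11 passed as lowered and 2 as raised, 52.4% and 9.52%, with a median log2 fold change of -0.55. Over all genes tested 18.6% passed as lowered and 27.8% as raised. Of the 4739 tested genes covered in wild-type, 1056 passed as lowered and 296 as raised. Leaving out 1 RNA library at a time gave 9 to 10 lowered and 0 to 1 raised. At equal covered length 58 of 137 passed as lowered and 14 as raised. Chac1 RNA was at 33.8 and 34.7 CPM in wild-type and 8.84 and 8.43 CPM in Pcgf6-/- (-1.98 ± 0.17 SE, edgeR adjusted p = 3.4e-07). Nupr1, a stress-induced chromatin protein, was at 33.5% in wild-type and 0% in Pcgf6-/-, with RNA of 94.9 and 94.2 CPM against 25.3 and 25.6 CPM (-1.89 ± 0.27 SE, edgeR adjusted p = 4.4e-05). Tnrc6c, a partner of Argonaute, was at 25.1% and 0.67%, and its RNA fell by 1.81 on the log2 scale (edgeR adjusted p = 6.7e-07). Aldh1b1, a mitochondrial aldehyde dehydrogenase, and Furin, a proprotein convertase, were at 35.8% and 28.1% in wild-type and 0% in Pcgf6-/-, with changes of -1.19 and -1.09 that both passed. All 6 named lost genes of this line fell in RNA, Ubash3a, a phosphatase gene of lymphocytes, being the sixth (-0.82).

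**Figure D4:**
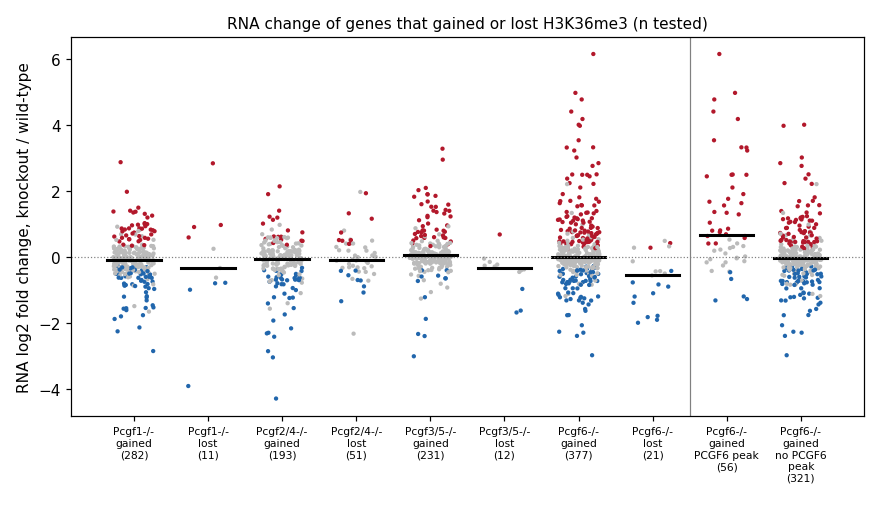
RNA log2 fold change of each tested gene that gained or lost H3K36me3 (y axis), by line and direction, with the gained genes of Pcgf6-/- divided by a wild-type PCGF6 promoter peak at the right. Red points passed the edgeR test as raised, blue as lowered, grey did not pass, and black bars are medians. The bar stands at 0.67 for the 56 tested genes with a PCGF6 peak, at -0.04 for the 321 without, and at -0.55 for the 21 lost genes of Pcgf6-/-.

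Read from the RNA side, few strongly raised genes were covered in the knockouts. In Pcgf6-/- 623 described genes passed as raised with a log2 fold change of at least 2 and a mean of at least 10 CPM in the knockout. Of these, 3 were covered in wild-type and 27 in Pcgf6-/-, or 12 at equal covered length. Over all 14011 described genes tested, 33.8% were covered in wild-type and 41.5% in Pcgf6-/-. Of the 623 genes 20 counted as gained, against 377 of the 14011, a similar share when pooled. The gains were uneven: 13 of the 95 genes with a PCGF6 promoter peak counted as gained (13.7%) and 7 of the 528 without (1.33%). Genes covered in wild-type cannot count as gained, and these were 4739 of the 14011 but 3 of the 623. Of the 95 with a PCGF6 promoter peak 15 were covered in Pcgf6-/- and 36 held any peak, and of the 528 without 12 and 57. Over the 20 germline genes described, 19 passed as raised and 1 as lowered in Pcgf6-/- (median log2 fold change 3.44), yet 4 were covered, against 1 in wild-type. Trophoblast genes went further apart: 9 of 13 passed as raised and 2 as lowered, and 0 of 14 described were covered in Pcgf6-/-. Primitive endoderm genes had 6 raised and 1 lowered of 12, with 2 of 16 covered. Members of these lists were chosen with earlier results of these data known, so their counts of raised genes are not independent evidence. In Pcgf1-/- 9 of 89 genes raised by this rule were covered, against 6 in wild-type, and in Pcgf3/5-/- 6 of 106, against 1. In Pcgf2/4-/- it was 2 of 11, against 0. These became 8, 3 and 0 at equal covered length, in the order Pcgf1-/-, Pcgf3/5-/- and Pcgf2/4-/-. Over all described genes tested, the covered shares as called were 42.8%, 42.0% and 38.5% in the same order. Over genes covered in at least 1 of the 2 lists compared, Spearman's rho between the difference in covered percent and the RNA log2 fold change was -0.06 in Pcgf1-/- (6048 genes), -0.06 in Pcgf2/4-/- (5596), 0.13 in Pcgf3/5-/- (5942) and 0.18 in Pcgf6-/- (5925). These describe genes, which are not independent replicates, and the coverage of both lists depends on their length.

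Part of the differences lay in blocks of chromosome. The X chromosome had 2.28 to 2.59 times the wild-type covered length in the 4 knockouts, against genome-wide ratios of 1.25 to 1.5, and held 8.61% to 18.7% of their gained genes with 4.45% of the genes described. The median RNA change of its genes was -0.16 in Pcgf1-/-, -0.02 in Pcgf2/4-/-, 0.04 in Pcgf3/5-/- and 0.27 in Pcgf6-/-. In the same order, the H3K4me3-covered length of X was 1.06, 1.22, 1.15 and 1.19 times that of wild-type, close to the ratios of most other chromosomes. Chromosome 14 stood at 2.25 in Pcgf3/5-/- and 2.35 in Pcgf6-/-, with 1.31 and 1.57 in the other 2 knockouts. Its H3K4me3-covered length was also above wild-type, 1.44 and 1.62 times, and the median RNA change of its genes was 0.25 in Pcgf3/5-/- but 0.03 in Pcgf6-/-. In Pcgf6-/- it held 64 of the 395 gained genes, and 46 of them, among them Ripk3 and Khnyn, started between 50 and 65 Mb. That segment was covered over 60.3 kb in wild-type, 267 to 338 kb in 3 knockouts and 837 kb in Pcgf6-/-, with 30 raised and 30 lowered genes of 131 tested in Pcgf6-/-.

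**Figure D5:**
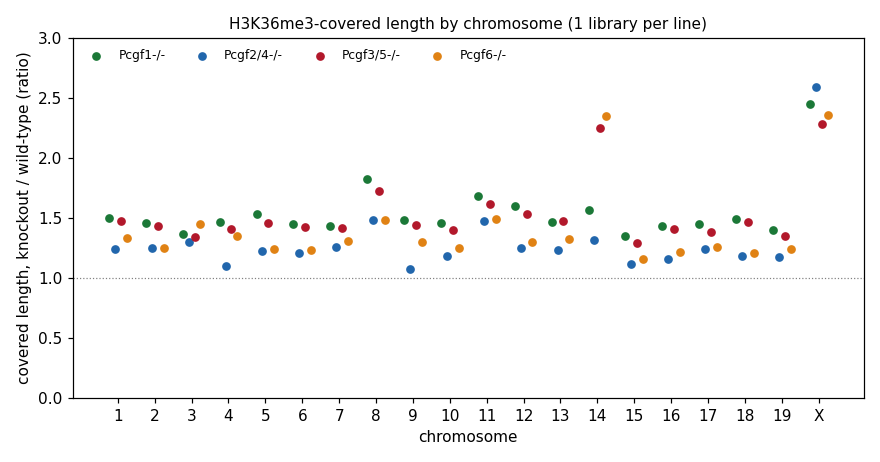
H3K36me3-covered length of each knockout divided by that of wild-type (y axis) for chromosomes 1 to 19 and X (x axis), 1 point per line. The X chromosome stands at 2.28 to 2.59 in all 4 lines and chromosome 14 at 2.25 and 2.35 in Pcgf3/5-/- and Pcgf6-/-.

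The losses of Pcgf2/4-/- were clustered as well. Windows of 5 Mb were compared where at least 50 kb was covered in either list. In Pcgf2/4-/- 7 of 376 windows had under 0.7 times the wild-type length, and in the other knockouts 0 of 390 to 405. These 7 windows made up the distal end of chromosome 4 (4 windows) and of chromosome 9 (3 windows, from 110 Mb), where the ratios were 0.57 and 0.42. These segments held 15 and 3 of the 53 lost genes, Klhl21, Otud3 and Pqlc2 among them, and the H3K4me3-covered length was 0.72 and 0.81 times that of wild-type. The median RNA log2 fold changes of their genes were 0.02 and -0.03 (256 and 110 genes tested). The start of chromosome 4, up to 20 Mb, went the other way. It was covered over 40.8 kb in wild-type, 185 kb in Pcgf2/4-/- and 209 kb in Pcgf6-/-, and 26 of 43 genes tested passed as raised in Pcgf2/4-/- (median 0.68), against 13 in Pcgf6-/- (0.02). In the window of chromosome 4 that starts at 130 Mb, where Gpn2 and Slc30a2 lie, the ratio was 2.18 in Pcgf2/4-/- with a median RNA change of 0.44, and 2.72 in Pcgf6-/- with -0.14. Copy number of these blocks was not tested. Without chromosomes X and 14 and the ends of 4 and 9, 236, 145, 187 and 290 genes counted as gained and 12, 35, 12 and 21 as lost, in the order of lines used above. The division by PCGF6 peak gave 29 raised and 3 lowered of 50 tested there, against 55 and 42 of 225 without the peak.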

How the data were processed

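The authors deposited 1 narrowPeak list per ChIP library and a table of read counts per gene symbol for 14 RNA libraries. Per the submitters' processing notes the tools included bcl2fastq 2, Bowtie 1.2.2, TopHat2 2.1.1, Picard 1.62, HTSeq 0.7.2, MACS2 2.1.1 and DESeq2 (listed as 3.7). In the deposited lists column 7 is a fold enrichment (a ratio) and column 9 a -log10 q-value, with the lowest at 8.13. Per the labels, Drosophila chromatin was added as a spike-in. Whether it entered the peak calls, and how many reads each ChIP library had, is not given in the sources used here, so the depth behind the lists is unknown.

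Peaks were merged and intersected with GENCODE M1 genes (NCBIM37) in Python. The deposited counts cover 23377 symbols. Of these, 20819 had 1 locus and 19025 genes of at least 1000 bases outside Y were described, of which 36.6% overlap another gene. Counts were tested with edgeR 4.0.16 (R 4.3.3): trimmed mean of M values (TMM), filterByExpr, quasi-likelihood test, all 14 libraries in 1 fit, Benjamini-Hochberg adjustment over 15464 genes. CPM values use the TMM factors. The pipeline was tested on simulated data.

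Named genes were the 6 targeted genes and up to 6 gained and 6 lost protein-coding genes per line. These had the largest difference, also counted at equal covered length and overlapped no other gene. Members of fixed lists were also named if they were gained or lost or belonged to the H3K36 lists. Members and lists were chosen with earlier results of these data known. Alternatives were DESeq2 1.42.0, other scaling and filters, other coverage thresholds, a replicate block and leaving out each RNA library.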

Additional observations from a re-analysis of the deposited data

How the results depend on the processing

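The 5 lists rest on 1 library each, so their differences have no replicate error, and the unknown read depth limits what a missing peak means. Of the alternatives for the peak lists, 20 of 28 moved a count of gained genes by over 1.5 times and 17 of 28 a count of lost genes. Coverage of at least 40% left 3031 covered genes in wild-type, and peaks with a -log10 q of at least 20 left 2169. With genes that overlap no other gene, covered genes numbered 2826 in wild-type, 3576 in Pcgf1-/-, 3204 in Pcgf2/4-/-, 3509 in Pcgf3/5-/- and 3501 in Pcgf6-/-, since fewer genes enter. In the order Pcgf1-/-, Pcgf2/4-/-, Pcgf3/5-/- and Pcgf6-/-, gained genes numbered 48, 98, 51 and 189 at equal covered length, 655, 408, 598 and 711 at 10% coverage, 71, 68, 60 and 156 at 40%, 185, 120, 152 and 251 without overlapping genes, and 1608, 1420, 1462 and 1635 at a -log10 q of at least 20. Lost genes numbered 223, 195, 201 and 141 at equal covered length, 49, 150, 42 and 67 at 10%, and 1, 12, 0 and 3 at 40%. Without overlapping genes 7 were lost in Pcgf1-/- and 6 in Pcgf3/5-/-, at a -log10 q of at least 20 there were 7 in Pcgf1-/- and 21 in Pcgf2/4-/-, and without the chromosomes and ends that stand apart 35 in Pcgf2/4-/-. The last setting, the -log10 q of 20 and the summed wild-type libraries were chosen after seeing the data. A -log10 q of at least 5 removed no peak. For thresholds the cause of the shifts was not tested.

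Genes passing the edgeR test numbered 4999, 3340, 3333 and 7185. Leaving out 1 library at a time gave 2955 to 3848 in Pcgf1-/-, 1772 to 4704 in Pcgf2/4-/-, 1602 to 2112 in Pcgf3/5-/- and 5576 to 5706 in Pcgf6-/-; where an arm keeps 1 library, it is assumed to vary like the other groups. A fit of 2 groups only gave 1146 in Pcgf2/4-/-, and summing the wild-type libraries gave 2164 in Pcgf3/5-/-. A replicate block gave 4517, 2952, 2921 and 6866. Deviations of same-numbered libraries correlated at -0.46 to 0.38, and at -0.02 to 0.06 between wild-type and the 4 knockouts, the groups that were compared. The correlation was above 0.1 among Pcgf1-/-, Pcgf3/5-/- and Pcgf6-/- and negative between Pcgf2/4-/- and each of them, so the numbers did not meet the condition for pairing, that every pair exceed 0.1.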
